A study of Mus musculus with 12 samples.

Results

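The SOX genes other than Sox2 that are described here are Sox1, Sox4, Sox5, Sox6, Sox9, Sox11, Sox13, Sox15, Sox17 and Sox21, 10 of the 21887 protein-coding genes of the annotation. They were taken by name, with earlier results of these data known. SOX2 regions were assigned to a gene when the midpoint of the region lay inside the gene span or within 50 kb of it. SOX2 was mapped by chromatin immunoprecipitation and sequencing (ChIP-seq) with an antibody to SOX2 in E14, a mouse embryonic stem cell line grown with serum, the cytokine LIF and 2 kinase inhibitors, CHIR99021 (3 μM, against GSK3) and PD184352 (0.8 μM, against MEK). Mitotic cells had been arrested overnight with nocodazole, which blocks microtubules, and sorted for the mitotic histone mark H3S10p; asynchronous cells were neither arrested nor sorted, as far as the labels say. Each condition had 3 ChIP libraries with SOX2 and 3 libraries of input DNA, which makes 4 groups and 12 libraries. The lists hold 84 mitotic regions, at the looser of the thresholds, and 10351 asynchronous ones, each list called on pooled replicates, so no value below has a replicate error and no difference was tested.

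SOX proteins share a DNA-binding HMG box that recognises short A/T-rich sequences and bends the DNA. The family is divided into subgroups by the sequence of this box. Sox1 belongs to subgroup B1 with Sox2, Sox21 to B2, Sox4 and Sox11 to C, Sox5, Sox6 and Sox13 to D, Sox9 to E, Sox17 to F and Sox15 to G. In embryonic stem cells SOX2 acts with the POU factor OCT4, while most other SOX factors are known for roles in lineages that arise later.

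No SOX2 region of mitotic cells lay near any of the 10 genes, and 24 regions of asynchronous cells did. In mitotic cells 0 of 10 genes had one, where a count of 0 still allows up to 30.0% (3 counts of 10; the exact 95% bound is 30.8%), and among all protein-coding genes 0.836% had a mitotic region within 50 kb, so an absence could not be detected with 10 genes. The nearest mitotic region lay between 4.89 Mb (Sox6) and 104 Mb (Sox21) from the gene. In asynchronous cells 7 of the 10 genes had a region within 50 kb, or 70.0% (exact 95% interval 34.8 to 93.3%, counting error only), against 45.5% of all protein-coding genes. The interval includes the background share. Since no mitotic region was nearer than 4.89 Mb, none of the 24 regions could overlap one, and this is no separate result.

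The 24 regions were spread unevenly. Sox5 had 11, Sox13 had 4, Sox6 had 3, Sox9 and Sox15 had 2 each, Sox11 and Sox21 had 1 each, and Sox1, Sox4 and Sox17 had none. The median was 1.5 regions per gene for the 10 SOX genes, against 0 for all protein-coding genes. Within 10 kb, 5 of the 10 genes had a region, against 23.8% of all genes, and 3 of the 10 held a midpoint inside the gene, against 14.7%. These 3 were the SOX genes of subgroup D, which are also the only ones of the 10 longer than 10 kb. Of genes longer than 500 kb, as Sox5 and Sox6 are, 81.5% had a region within 10 kb and 80.2% held one inside. No interval was computed for the shares within 10 kb or inside.

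**Figure D1:**
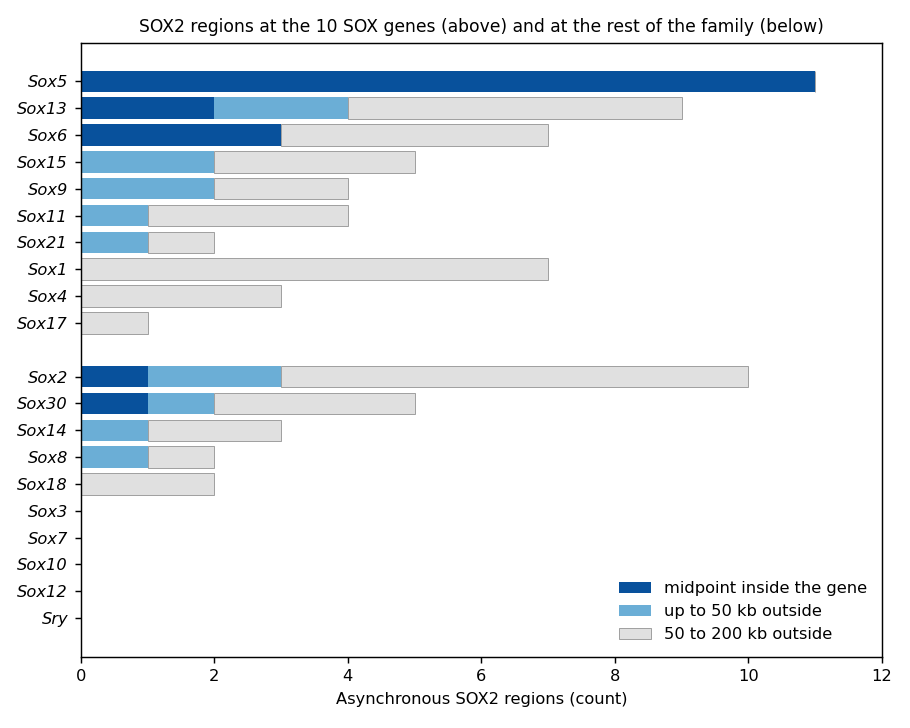
Horizontal bars give the number of asynchronous SOX2 regions for each SOX gene, split into midpoints inside the gene, up to 50 kb outside and 50 to 200 kb outside; the 10 genes described stand above the remaining 10 of the family. Sox5 has 11 regions, all inside the gene, and Sox1, Sox4 and Sox17 have regions only beyond 50 kb.

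Gene length differs widely among these genes, from 1.69 kb for Sox15 to 954 kb for Sox5, and a longer gene has a longer window in which a region can fall. Per 100 kb of gene span plus 50 kb on either side, the 10 SOX genes together had 0.923 regions, and all protein-coding genes together had 0.520. By gene, the density was 2.81 per 100 kb at Sox13, 1.97 at Sox15, 1.89 at Sox9, 1.04 at Sox5, 0.963 at Sox21, 0.922 at Sox11 and 0.448 at Sox6. Sox13 was thus the densest of the 10, and 1.79% of all protein-coding genes were as dense or denser. Sox6, with 3 regions in a long window, was below the density of all genes together. It was above that of genes longer than 500 kb together, 0.337 per 100 kb.

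**Figure D2:**
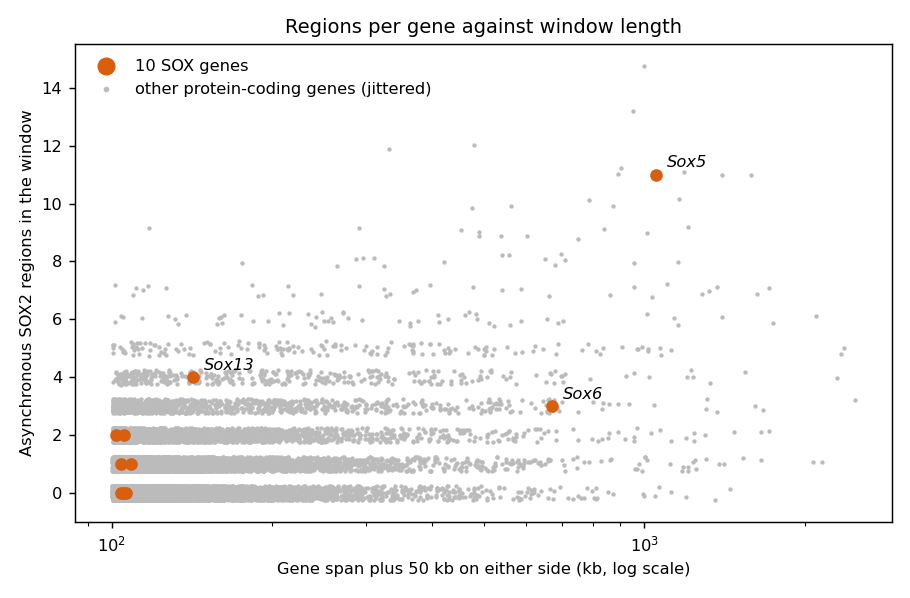
Each point is a protein-coding gene, with the length of its span plus 50 kb on either side (kb, log scale) on the x axis and its number of asynchronous SOX2 regions on the y axis; orange points are the 10 SOX genes. Sox5 lies among the genes with the most regions, and Sox13 has 4 regions in a window of 142 kb.

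Sox5, Sox6 and Sox13 encode the SOXD proteins, which pair through a coiled coil and lack an activation domain of their own. SOX5 and SOX6 are known for acting with SOX9 in cartilage formation. All 3 genes had regions inside them, 18 regions within 50 kb in all, of which 16 were inside. The spans of Sox5 and Sox6 fill most of their windows, 954 of 1054 kb and 570 of 670 kb. Over the whole asynchronous list, 47.9% of regions had their midpoint inside a gene. Of protein-coding genes longer than 500 kb, as Sox5 and Sox6 are, 80.2% held a region inside. The table of gene starts used here gives 1 start for Sox5 and 6 for Sox6, all within the gene spans, and the 250 bases before some of them are shown for comparison with the positions of the regions. Capitals mark the SOX core motifs ACAATG and ACAAAG, or their reverse complements CATTGT and CTTTGT; the sequences are from RefSeq on GRCm38.p6, 5′ to 3′ on the minus strand, from which both genes are read. The first is the start of Sox5 at chr6:143947107-143947356, and the others are 3 starts of Sox6 at chr7:116038745-116038994, chr7:115995087-115995336 and chr7:115824711-115824960.
Sox5 start: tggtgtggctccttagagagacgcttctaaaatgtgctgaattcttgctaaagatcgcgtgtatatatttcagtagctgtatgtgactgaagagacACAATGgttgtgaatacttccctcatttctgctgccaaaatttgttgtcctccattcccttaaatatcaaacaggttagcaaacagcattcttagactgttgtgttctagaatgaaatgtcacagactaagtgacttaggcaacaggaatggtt
Sox6 start nearest to a region: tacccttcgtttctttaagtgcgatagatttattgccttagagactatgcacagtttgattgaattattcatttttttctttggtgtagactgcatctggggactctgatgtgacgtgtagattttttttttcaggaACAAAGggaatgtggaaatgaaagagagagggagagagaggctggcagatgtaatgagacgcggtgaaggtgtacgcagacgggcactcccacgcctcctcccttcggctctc
Sox6 start with the most motifs: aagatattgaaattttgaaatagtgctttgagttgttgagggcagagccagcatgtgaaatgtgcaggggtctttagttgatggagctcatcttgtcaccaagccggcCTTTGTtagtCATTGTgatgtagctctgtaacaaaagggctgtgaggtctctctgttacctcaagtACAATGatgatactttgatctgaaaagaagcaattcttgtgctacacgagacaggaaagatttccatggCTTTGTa
Sox6 start second nearest to a region: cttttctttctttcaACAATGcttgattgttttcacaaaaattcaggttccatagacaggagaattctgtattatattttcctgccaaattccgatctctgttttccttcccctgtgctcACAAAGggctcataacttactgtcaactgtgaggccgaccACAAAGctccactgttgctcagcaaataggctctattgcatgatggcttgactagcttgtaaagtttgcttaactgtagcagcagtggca

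The Sox5 sequence holds 1 ACAATG, and the start it belongs to lay 278 kb from the nearest SOX2 region. The 3 Sox6 sequences hold 1, 4 and 3 motifs, and their starts lay 1.72, 45.4 and 5.78 kb from the nearest region. None of these 250-base stretches overlapped a region.

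Sox5 (chromosome 6, 143828425 to 144782287) held all of its 11 regions inside the gene. Of the 227 protein-coding genes longer than 500 kb, 84.1% had a region within 50 kb, with a median of 2, and 8 genes, Sox5 included, had 11 or more. Of all protein-coding genes, 10 reached that number. The density at Sox5, 1.04 per 100 kb, stood beside 0.337 for all genes of that length together. The first 10 regions lay within 257 kb, or 26.9% of the gene, with no listed region over the 396 kb on their low-coordinate side.

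Inside this stretch the Sox5 regions formed 2 groups, with neighbours less than 50 kb apart in each, and a single region between the groups. The first group held 5 regions over 49.0 kb, from 144224699 to 144273690. Its widest region, 779 bp, lay at 144250853 to 144251631, and the others were 183, 330, 228 and 337 bp wide. The region between the groups, at 144361139 to 144361917, was also 779 bp wide, and both were at width percentile 99.4 of the asynchronous list. The second group held 4 regions over 27.9 kb, from 144453683 to 144481542. In it, a region of 225 bp and one of 588 bp (144454258 to 144454845) were 350 bp apart, and regions of 433 and 188 bp followed.

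The 11th Sox5 region was separated from the others by 301 kb. It was 206 bp wide, at 144782058 to 144782263, and its midpoint lay 0.127 kb from the high-coordinate end of the gene. Since Sox5 is read from the minus strand, a transcript that spans the whole gene starts at this end. The first region, at 144224699 to 144224881, also overlapped the long noncoding RNA gene Gm38531.

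Sox6 (chromosome 7, 115470872 to 116040776) had 3 regions, all inside the gene, close to the median of 2 for genes longer than 500 kb. The widest, 703 bp, was at 115865860 to 115866562, at width percentile 98.8, and was the only one of the 24 with 2 entries in the list. A region of 223 bp lay at 115830383 to 115830605. The third, 320 bp wide at 116040310 to 116040629, had its midpoint 0.307 kb from the high-coordinate end of this minus-strand gene. Sox5 and Sox6 therefore each had 1 region at the end where a transcript of the whole span starts, and these were the only 2 of the 24 regions (8.33%) within 1 kb of an end of their SOX gene. In the whole asynchronous list, 7.46% of regions were within 1 kb of an end of any protein-coding gene. That is a wider set of ends than those of the SOX genes, so the 2 shares are not directly comparable. Beyond the window, 3 further regions lay 55.3, 61.8 and 87.7 kb past the other end of Sox6, and 1 lay 103 kb upstream, inside Plekha7.

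Sox13 (chromosome 1, 133382300 to 133424459) is a SOXD gene of ordinary length, 42.2 kb, and had 4 regions, against a median of 0 for protein-coding genes of 10 to 100 kb; 2.11% of those genes had as many. The 2 widest were inside the gene, 545 bp at 133397570 to 133398114 and 498 bp at 133411423 to 133411920, at width percentiles 94.3 and 91.0. The other 2 were narrower, 264 and 269 bp, and lay 10.1 and 24.1 kb upstream, at 133434440 to 133434703 and 133448428 to 133448696. Neighbouring regions were 13.3 to 22.5 kb apart. A pair of regions of 504 and 421 bp lay further upstream, 68.2 and 69.1 kb from the gene, with Sox13 still the nearest protein-coding gene. The gene ends 1.98 kb from Etnk2, an ethanolamine kinase gene, which was also within 50 kb of both regions inside Sox13.

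**Figure D3:**
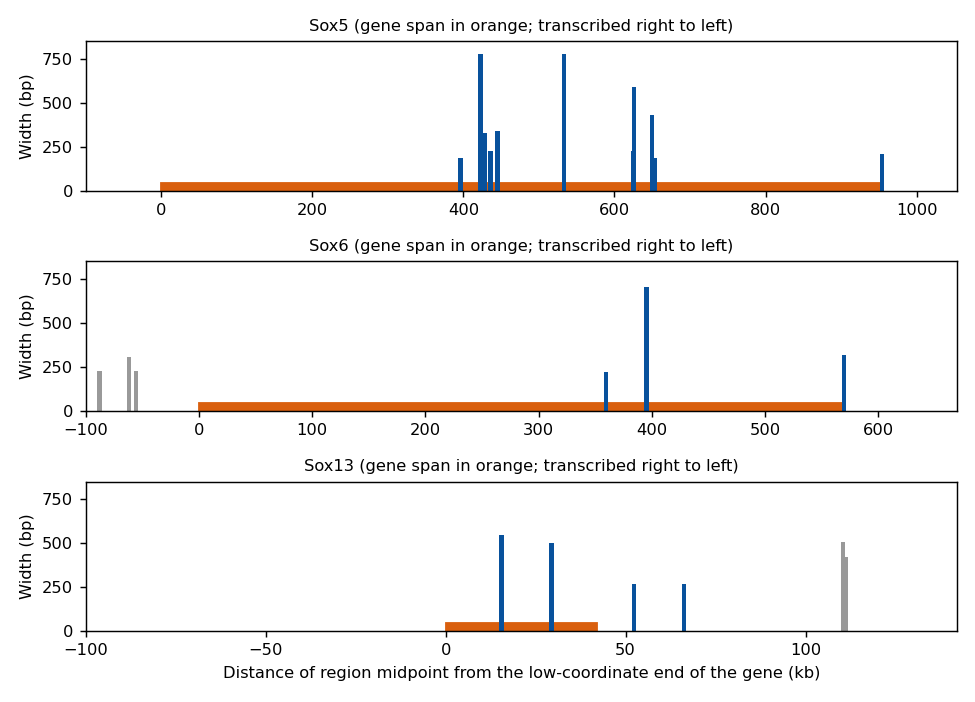
Bars give the width (bp) of each asynchronous SOX2 region at Sox5, Sox6 and Sox13 against the distance of its midpoint from the low-coordinate end of the gene (kb), with regions within 50 kb of the gene in blue and those up to 100 kb away in grey. The regions of Sox5 stand in the middle of the gene except for 1 at the right end, and Sox6 has 1 region at its right end too.

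Sox9 is known for directing cartilage and testis development. Sox9 (chromosome 11, 112782210 to 112787757) had a region on either side. That on the low-coordinate side, 8.98 kb away at 112773093 to 112773366, was 274 bp wide. That on the high-coordinate side, 23.6 kb away at 112811059 to 112811668, was 610 bp wide, at width percentile 97.1, the widest at any of the short genes. Sox9 lies in a wide stretch without other protein-coding genes, 1056 kb from Gm11677 and 457 kb from Slc39a11, and it was the nearest gene of both regions. Further regions on the high-coordinate side were 154 and 172 kb away.

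Sox21, which encodes a SOXB2 repressor of neural progenitor cells, had 1 region. It was 486 bp wide, at chromosome 14, 118230228 to 118230713, and lay 2.76 kb downstream of the gene (118233233 to 118237030), nearer than any region outside the gene at the other 9. Sox1, a SOXB1 gene of neural progenitors and the closest relative of Sox2 among the 10, had none within 50 kb of its span (chromosome 8, 12395519 to 12399555). It had 7 within 200 kb, more than any other of the short genes. Of these, 2 lay 78.3 and 78.7 kb downstream, at 12477663 to 12477951 and 12478075 to 12478490, only 123 bp apart. Another 3 lay 100.3 to 105 kb downstream, the widest of them 489 bp at 12502224 to 12502712. All 5 are further than 50 kb from every protein-coding gene. The remaining 2 were 134 kb upstream, with A230072I06Rik as the nearest gene, and 180 kb downstream, inside Spaca7.

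Sox11 and Sox4 encode SOXC factors of neuronal differentiation. Sox11 (chromosome 12, 27334268 to 27342718) had 1 region of 397 bp, at 27320729 to 27321125, 13.3 kb downstream. Another 3 lay 180 to 194 kb downstream, and Sox11 was the nearest protein-coding gene of all 4. Sox4 (chromosome 13, 28948919 to 28953699) had none within 50 kb. Its nearest regions, 236, 202 and 350 bp wide, lay 63.7, 138 and 168 kb downstream, and all 3 overlapped the long noncoding RNA gene 2610307P16Rik.

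Sox17, which specifies endoderm, had the fewest regions of the 10 within 200 kb. The only one, 195 bp wide at chromosome 1, 4598434 to 4598628, lay 101 kb from the gene (4490928 to 4497426) and overlapped the long noncoding RNA gene Gm37323. Sox15 differs from the rest in its setting. This gene of subgroup G, which is expressed in mouse embryonic stem cells, is 1.69 kb long (chromosome 11, 69655037 to 69656727) and has 11 other protein-coding genes within 50 kb. Its 2 regions lay 14.3 and 47.5 kb downstream. The nearer, 243 bp at 69670954 to 69671196, was inside Eif4a1, a translation initiation factor gene, and the other, 516 bp at 69703950 to 69704465, was nearest to Tnfsf12 and Tnfsfm13. Sox15 was thus the nearest gene of neither, and these were the only 2 of the 24 regions whose nearest protein-coding gene was another one.

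**Figure D4:**
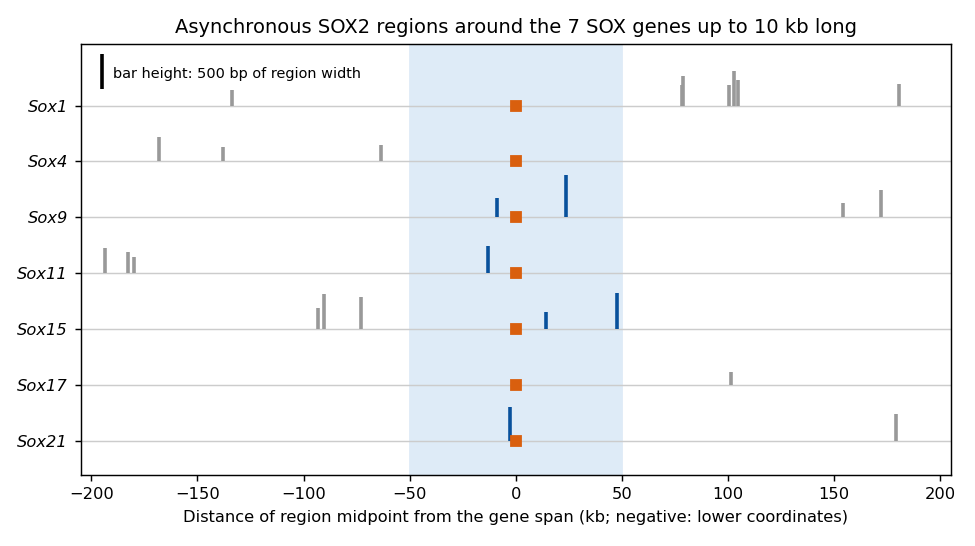
Vertical bars mark asynchronous SOX2 regions by the distance of their midpoint from the span of each of the 7 SOX genes up to 10 kb long (kb, negative towards lower coordinates), with bar height for region width; orange squares are the genes, and blue bars lie within the shaded 50 kb. Sox1, Sox4 and Sox17 have no bar in the shaded area, and Sox1 has 5 bars between 78.3 and 105 kb.

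Of the 7 short genes, 4 (57.1%) had a region within 50 kb, against 34.0% of all protein-coding genes up to 10 kb long. Within 200 kb all 10 SOX genes had at least 1 region, between 1 (Sox17) and 11 (Sox5), with a median of 4.5 regions, against 79.8% of all protein-coding genes and a median of 2. The window of 200 kb was added after the results were seen. For 18 of the 24 regions within 50 kb, the SOX gene was the only protein-coding gene within 50 kb. All regions of Sox5 are among them, a gene of 954 kb whose nearest protein-coding neighbour is 212 kb away. The same share over the whole asynchronous list was not computed, so 18 of 24 has no background beside it.

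The regions at SOX genes included both wide and narrow ones. Their median width was 333.5 bp (interquartile range 239 to 523 bp), against 289 bp (226 to 381 bp) for the asynchronous list, and 14 of the 24 (58.3%) were wider than that list's median. Above width percentile 90 of the list were 8 of the 24 (33.3%), at Sox5, Sox6, Sox9, Sox13 and Sox15. The narrowest, 183 bp in Sox5, had the smallest width in the list. Width says nothing certain about the strength of binding, and the depth of the libraries is unknown.

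**Figure D5:**
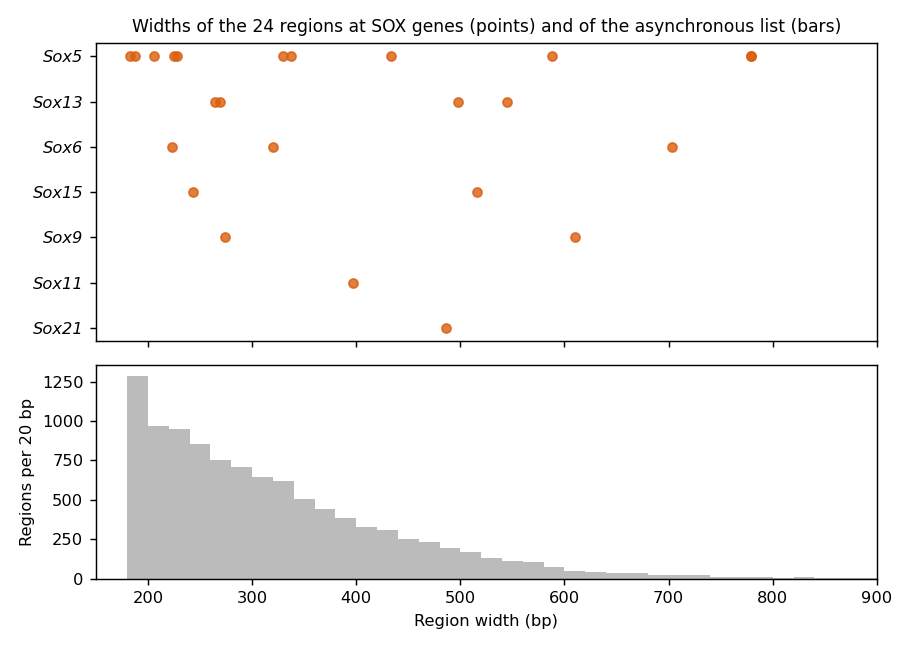
Points in the upper panel give the widths (bp) of the 24 asynchronous regions within 50 kb of each SOX gene, and bars in the lower panel give the number of regions of the asynchronous list per 20 bp of width. The points run from 183 to 779 bp, and 2 points of Sox5 coincide at 779 bp.

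The remaining 10 genes of the family had fewer regions. Of them, 4 (40.0%) had a region within 50 kb, with a median of 0. Sox2 itself had 3 regions and Sox30 had 2, while Sox14 and Sox8 had 1 each. Sox14, the other SOXB2 gene, resembled Sox21 in having its single region, 631 bp at chromosome 9, 99872319 to 99872949, just downstream, at 1.47 kb. Sox2 and Sox30, of other subgroups, also had a region just downstream, at 1.62 and 2.49 kb. Sox3, Sox7, Sox10, Sox12, Sox18 and Sry had none within 50 kb, and of these only Sox18 had any within 200 kb. By subgroup, all 3 SOXD genes and both SOXB2 genes had a region within 50 kb, and none of the 3 SOXF genes, Sox7, Sox17 and Sox18, did. The share was 45.5% over all protein-coding genes, 84.1% over those longer than 500 kb, as Sox5 and Sox6 are, and 34.0% over those up to 10 kb, as the SOXB2 and SOXF genes are, and no difference between subgroups was tested.

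Beside these, 23 of 42 forkhead genes (54.8%) and 6 of 15 POU genes (40.0%) had an asynchronous region within 50 kb. The density was 0.923 regions per 100 kb for the 10 SOX genes, 0.840 for forkhead genes and 0.653 for POU genes. Without Sox5 and Sox6, 5 of 8 SOX genes (62.5%, exact 95% interval 24.5 to 91.5%) had a region, with 1.14 per 100 kb. Over all protein-coding genes the share was 45.5% and the density 0.520 per 100 kb, and the intervals of the 8 SOX genes, the forkhead genes (38.7 to 70.2%) and the POU genes (16.3 to 67.7%) all include that share. No forkhead or POU gene had a mitotic region within 50 kb, where 0.836% of all protein-coding genes did. The exact 95% upper bounds are 8.41% for the forkhead genes and 21.8% for the POU genes, so an absence could not be detected.

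At the annotated starts, the sequences of 8 of the 10 genes could be searched for motifs, all but Sox9 and Sox17, with 13 starts in all. None of the 13 stretches of 250 bases before a start overlapped an asynchronous region, where 1.49% of all 32851 annotated starts did. At that share, 13 stretches are too few for an absence to be detected. Starts at the high-coordinate ends of Sox5 and Sox6, where each gene had a region, are not among the 13. A SOX core motif, ACAATG or ACAAAG on either strand, was found in 6 of the 13, of which 5 belong to Sox6 and 1 to Sox5, and in 25.2% of all starts. The 6 stretches with a motif held 39.6 to 60.8% G and C bases. Those without held 50.8 to 72.4%, apart from 1 of Sox6 with 34.0%. The shares were not matched for base composition, and their difference was not tested. The octamer ATGCAAAT, a POU site, and a composite SOX-OCT motif (TTGT and ATGC with any base between them, then any base and AA) were found in none of the 13, and in 1.60% and 0.0731% of all starts. A match is a description of the letters only. In the rest of the family 1 of 6 starts overlapped a region, that of Sox30, a gene known for its role in male germ cells. Its sequence is given at chr11:45980060-45980309 (GRCm38.p6, plus strand, RefSeq), with the 73 bases that the region at 45979846 to 45980132 covers in capitals.
Sox30 start: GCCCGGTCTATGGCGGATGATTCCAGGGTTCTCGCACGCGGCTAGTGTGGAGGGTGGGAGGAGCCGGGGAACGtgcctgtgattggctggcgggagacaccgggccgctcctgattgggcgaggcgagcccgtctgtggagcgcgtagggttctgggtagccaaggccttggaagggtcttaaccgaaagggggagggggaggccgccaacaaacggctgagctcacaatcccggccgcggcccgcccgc

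The Sox30 stretch held none of the 4 motifs searched. The sequences of the regions themselves were not analysed here.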

How the data were processed

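Per the submitters' processing notes, Bowtie2 2.2.1, MACS2 and mm10 were used. The authors deposited 1 list per condition, with values in other units than counts: peak starts and ends in bp, with no score, fold, p-value or read count. The deposited names say that ChIP was set against input with 3 replicates together and that blacklisted regions were removed. Their q-value tags are read here as 0.05 for mitotic and 0.01 for asynchronous cells, which is looser for mitotic cells. Depth is unknown.

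Starts were counted from 1, and 181 asynchronous entries that repeated coordinates were merged. Peak numbers run to 131 (mitotic) and 15590 (asynchronous), and 47 and 5239 of these numbers are missing. Among the missing asynchronous numbers, 3 fall between listed regions within the windows of Sox5, Sox6 and Sox13, and up to 18 more may fall in the windows of the 10 genes, so counts refer to listed peaks. Gene spans came from RefSeq GRCm38.p6, the assembly named mm10, on 21 chromosomes. Exons and introns were not used here. Strand came from the table of gene starts, where it was given.

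The genes and lists were chosen with earlier results of these data known, so no test was run on them. Named genes were the 10 SOX genes, the rest of the family and the nearest genes of their regions; neighbouring genes, noncoding genes and regions beyond 50 kb were chosen after their values were seen. Forkhead and POU genes served for comparison. Intervals are exact (Clopper-Pearson, 95%) and, like the limit of 3 counts, cover counting error only. Assignment was tested on simulated regions. Python 3.11.15, numpy 2.4.6, pandas 2.3.3, scipy 1.17.1 and matplotlib 3.10.9 were used. The alternatives were other windows, any overlapping base, wider regions, unmerged entries and the nearest gene only. A planned comparison of HMG box sequences was not carried out.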

Additional observations from a re-analysis of the deposited data

How the results depend on the processing

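Of 37 recomputed values over 6 results, 29 stayed within 1.5 times of the reported count, or within the interval of the reported share. The 29 include every value for mitotic regions, all of them 0. No setting run could change these, as the nearest mitotic region lay 4.89 Mb from any of the genes, so they say nothing about stability. No mitotic region came within 200 kb of the 10 genes, and no region near them overlapped a mitotic one, under any setting run. Between 5 (10 kb) and 10 (200 kb, added after the data were seen) of the genes had an asynchronous region, against 7 as reported. Among regions wider than the list's median, 14 lay near the genes, 10 of them inside, and 26.7% of all protein-coding genes had one. Within 200 kb, 53 regions lay near the 10 genes. The share of all protein-coding genes was 23.8% within 10 kb, 62.4% within 100 kb, 79.8% within 200 kb and 23.5% by nearest gene only. By construction, a narrower window or fewer regions gives lower counts. Of 70 recomputed counts of single genes, 22 moved by more than 1.5 times. Among these, Sox15 lost both regions by nearest gene and within 10 kb, and Sox11 lost its region within 10 kb. Other counts rose: within 100 kb, Sox1 had 2 regions and Sox4 had 1, so their lack of regions holds for 50 kb only. Within 100 kb, Sox6 had 6 and Sox15 had 5. No paired analysis was possible because each list pools its replicates, and for the same reason no replicate could be left out. Depth limits could not be assessed.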
